A study of Bombyx mori with 4 samples.

Results

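Gypsy retrotransposons in the RNA bound by BmVasa are described here through 72 sequences of a silkworm transposon library. They were chosen by name: all sequences whose library name assigns them to the class LTR/Gypsy, apart from the 4 elements BmRT1, BmRT2, BmRT11 and BmRT12, which were left out by name. The table held 18596 sequences in all, of which 76 carried the class LTR/Gypsy. RNA was recovered with an antibody against BmVasa by FAST-iCLIP, in which UV light links a protein to the RNA it touches and the attached fragments are sequenced, from BmN4 cells, a line of cultured germ cells derived from silkworm (Bombyx mori) ovary. The cells had received siRNA against luciferase, which they lack as the control (Luc KD), or against Spindle-E, whose loss lowers the amount of Siwi loaded with piRNA in these cells (Spn-E KD). Each group had 2 replicates, which the authors merged before the table was made, so each value is that of 1 pooled library and no difference between the groups has a replicate check.

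Gypsy elements are retrotransposons with long terminal repeats (LTRs). Transcription starts in the first LTR and ends in the last, and the transcript serves both as the mRNA for the Gag and Pol proteins and as the template that is copied into DNA before a new insertion. In animal germ cells these transcripts are targets of piRNAs, short RNAs that guide PIWI proteins to cleave complementary RNA. Vasa is a DEAD-box RNA helicase of the nuage, the granule beside the germ cell nucleus where silkworm Siwi and Ago3 cut transposon RNA and make new piRNAs from the pieces.

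The pooled libraries held 1012269 genome-mapped reads under Luc KD and 1059323 under Spn-E KD, of which 384001 and 403022 were sense reads on the gene library. Levels are given as RPM, the reads on a sequence per 1000000 genome-mapped reads of its library. A single read was worth 0.988 RPM under Luc KD and 0.944 RPM under Spn-E KD. Gene models carry no gene symbols in the table, so the level of Spn-E and the markers of the cell line were not checked, and group identity rests on the sample labels. Because total RNA was not analysed here, more of an RNA in the cell and more binding per RNA cannot be told apart. All intervals below are 95% intervals and cover counting error only.

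BmVasa-bound reads were found on nearly all Gypsy sequences. At least 1 read fell on 70 of the 72, and BmTE_RM1-487 (2070 nt) and BmTE_RM1-610 (409 nt) had none in either library, where up to 3 reads would be compatible with a count of 0. The median Gypsy sequence had 31 reads under Luc KD and 27 under Spn-E KD. A mean of at least 10 RPM over both libraries, the minimum used for testing, was reached by 51 of the 72 (70.8%). The other 21 had at most 16 reads in a library. The same minimum was reached by 75.6% of 41 Pao sequences and 80% of 15 Copia sequences, the other main classes of LTR retrotransposons, by 32.8% of the transposon library and by 24.8% of the 14300 protein-coding sequences.

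In both libraries a small number of elements carried most Gypsy reads. Kabuki, a named element of 5308 nt, had 1236 reads under Luc KD and 1849 under Spn-E KD, or 1221 and 1745 RPM. Only 13 of the 18596 sequences had a higher mean RPM. Gypsy reads here and below are those on the 72 sequences, without the 4 elements left out by name. Kabuki alone took 19.6% of them under Luc KD (Wilson interval 18.6 to 20.6) and 24.0% under Spn-E KD (23.0 to 24.9). With the 4 elements added, BmRT2 was the most abundant, at 45.2% under Luc KD and 38.5% under Spn-E KD. The first 5 of the 72 by mean RPM held 50.6% and 54.8% of the Gypsy reads, and the first 10 held 71.6% and 74.2%. The other 62 sequences shared 1798 reads under Luc KD and 1988 under Spn-E KD. Of the 10 sequences with the most reads in one library, 9 were also among the 10 of the other. Across the 72 sequences the log2 RPM of both libraries correlated with Pearson's r = 0.95, a description over sequences that share their libraries.

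**Figure D1:**
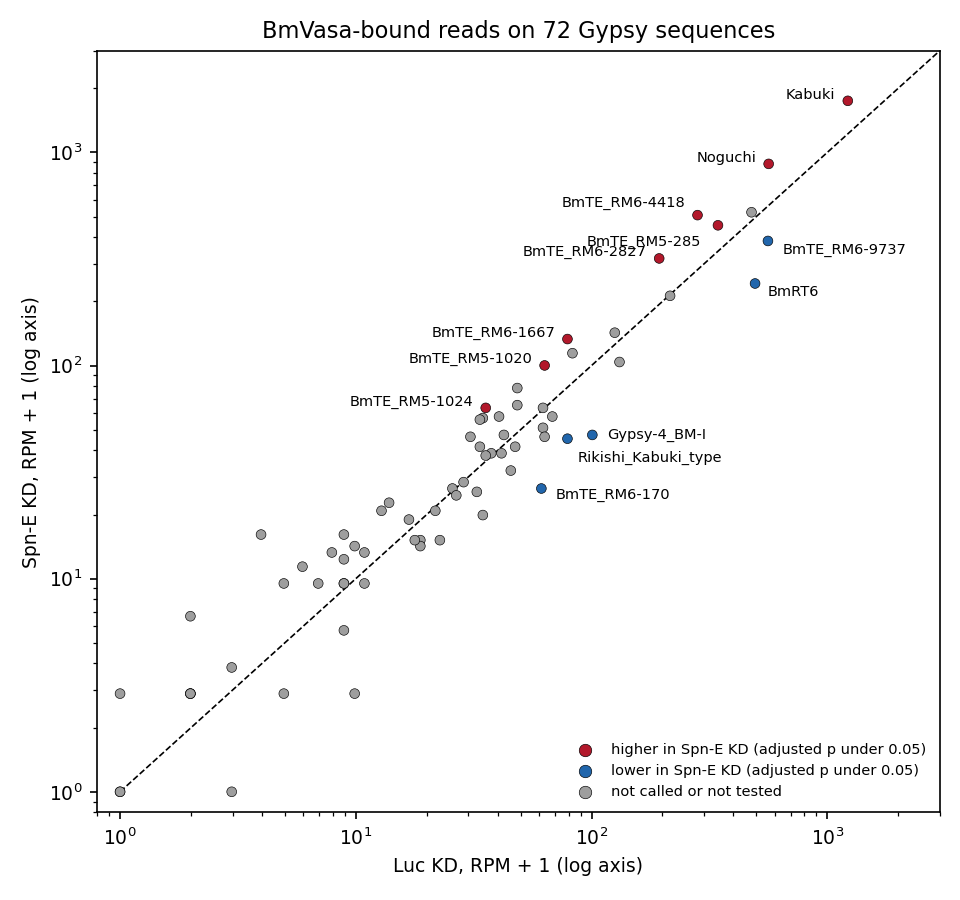
BmVasa-bound reads on each of the 72 Gypsy sequences, in RPM + 1 on log axes, for Luc KD (x) and Spn-E KD (y); each point is 1 sequence and the dashed line marks equal values. Kabuki stands highest at 1221 and 1745 RPM, the 8 red points above the line and the 5 blue points below it passed the exact binomial test, and the spread around the line widens toward low values.

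Levels can be compared between sequences only per length. In RPKM, which is RPM per kilobase of sequence, Kabuki was first among the 72 Gypsy sequences, with 230 RPKM under Luc KD and 329 RPKM under Spn-E KD. BmTE_RM6-6875 (2860 nt) followed with 166 and 183 RPKM, and BmTE_RM6-2827 (1575 nt) with 122 and 201 RPKM. Both are numbered repeats without an element name, so high densities were not limited to the named elements. Next in mean RPKM stood Noguchi (5775 nt) at 97.5 and 153 RPKM, BmTE_RM5-6906 at 95.3 and 146 RPKM, and BmTE_RM6-3530 (1769 nt) at 121 and 120 RPKM. BmTE_RM5-6906 is only 311 nt long, and its density rested on 30 reads under Luc KD and 48 under Spn-E KD. At least 100 RPKM was reached by 5 sequences under Luc KD and 7 under Spn-E KD, whereas the median over the 72 was 10.2 RPKM under Luc KD and 11.2 RPKM under Spn-E KD.

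Longer Gypsy sequences had more reads but not more reads per kilobase. Over the 72 sequences Spearman's rho of length with the reads summed over both libraries was 0.61, and that of length with mean RPKM was 0.08. The points share both libraries, and related sequences can share reads. The 32 sequences of 4000 nt or more held 71.2% of the Gypsy reads under Luc KD and 69.4% under Spn-E KD, with median levels of 10.7 and 11.2 RPKM. The 25 sequences of 1000 to under 4000 nt had medians of 11.2 and 11.9 RPKM, and the 15 shorter ones had medians of 7.98 and 7.04 RPKM. Only 3 of these 15 reached the minimum for testing, against 30 of the 32 longest.

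Per kilobase, most Gypsy sequences lay above the protein-coding median of their length class, which includes sequences with few or no reads. Among Gypsy sequences of 4000 nt or more, 27 of 32 exceeded that median in both libraries. It was 2.73 RPKM under Luc KD and 2.25 RPKM under Spn-E KD, and 433 of these 711 protein-coding sequences reached the minimum for testing. This held for 21 of 25 at 1000 to under 4000 nt and for 11 of 15 below 1000 nt. The shortest class says little, because at such lengths a single read can exceed its protein-coding medians of 2.28 and 2.10 RPKM. On BmTE_RM1-630 (268 nt) 1 read under Luc KD gave 3.69 RPKM. The Gypsy sequences of this class were also shorter, with a median of 321 nt against 695 nt. Long Pao sequences had median levels of 16.7 and 22.1 RPKM and long Copia sequences 20.3 and 13.5 RPKM. The long Gypsy median, without the 4 elements left out by name, was thus below those of Pao and Copia in both libraries. That of long LINE sequences (non-LTR retrotransposons) was lower still, at 6.37 and 5.16 RPKM. Among tested sequences of all lengths the gap to protein-coding sequences was small. Their medians were 12.6 RPKM under Luc KD and 9.91 RPKM under Spn-E KD, against 14.1 and 12.8 RPKM for Gypsy. These medians are descriptions without a test.

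**Figure D2:**
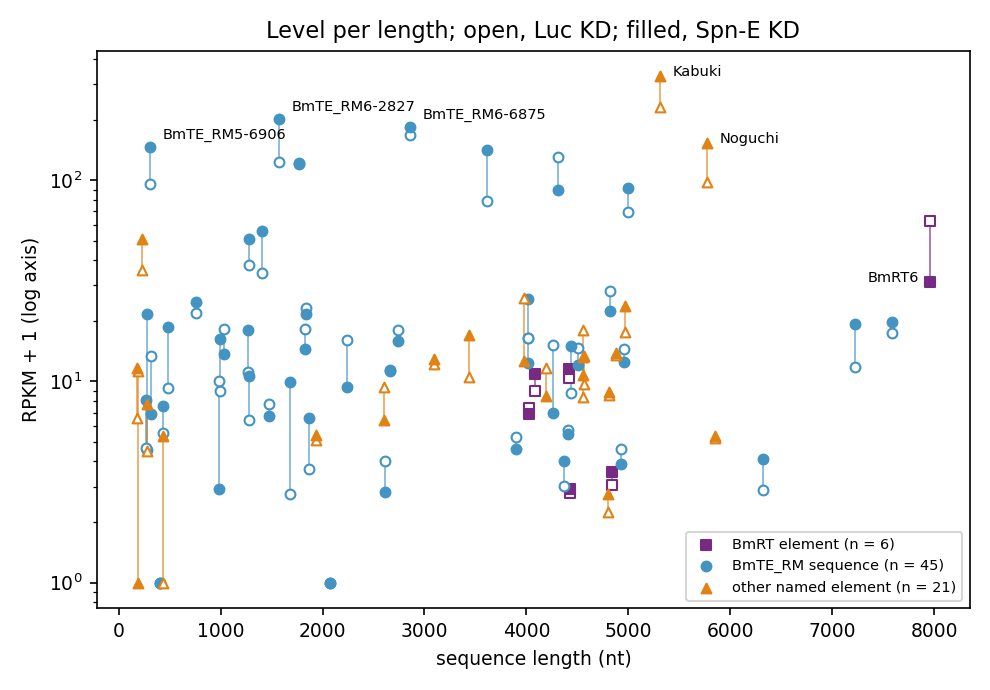
Level per length (RPKM + 1, log axis) of the 72 Gypsy sequences against sequence length in nt, with Luc KD as open and Spn-E KD as filled symbols joined by a line; squares are 6 BmRT elements, circles 45 BmTE_RM sequences and triangles 21 other named elements. Kabuki is highest at 230 and 329 RPKM, high densities occur from the 311 nt BmTE_RM5-6906 to the 5775 nt Noguchi, and the points show no trend with length.

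By name the sequences fall into 6 BmRT elements of 4026 to 7961 nt, 45 numbered BmTE_RM sequences of 268 to 7588 nt and 21 other named elements of 178 to 5848 nt. The BmTE_RM sequences held 51.8% of the Gypsy reads under Luc KD and 50.4% under Spn-E KD. The other named elements held 38.4% and 44.5%, and the BmRT elements 9.78% and 5.12%. Most BmRT reads were those of BmRT6, with 499 of 618 under Luc KD and 256 of 395 under Spn-E KD. The remaining BmRT elements were thinly covered, from 8 and 9 reads on BmRT9 to 42 and 49 on BmRT10.

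For 5 elements the library holds the LTR and the internal part, which carries the coding sequence, as separate entries. Gypsy-6_BM was the only one of the 5 whose LTR had more reads per kilobase than its internal part beyond counting error. Its LTR of 226 nt had 8 reads under Luc KD and 12 under Spn-E KD, or 35.0 and 50.1 RPKM, while its internal part of 5848 nt had 25 and 27 reads, or 4.22 and 4.36 RPKM. The LTR thus held 8.28 times as many reads per kilobase as the internal part under Luc KD (exact interval 3.23 to 18.9) and 11.5 times as many under Spn-E KD (5.31 to 23.5). The densities of this LTR rest on few reads.

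The other 4 LTRs had 0 to 2 reads in either library. Gypsy-4_BM was the reverse of Gypsy-6_BM under Luc KD, with 1 read on its LTR of 281 nt and 101 on its internal part of 3975 nt, a density ratio of 0.14 (0.00351 to 0.798). In Spn-E KD the same parts had 2 and 49 reads, a ratio of 0.58 whose interval (0.0680 to 2.20) included 1. For Gypsy-7_BM the LTR had 2 reads against 83 under Luc KD and 0 against 120 under Spn-E KD, where the upper limit of the ratio was 0.807. The intervals of Gypsy-1_BM and Gypsy-3_BM included 1 in both libraries. Those of Gypsy-3_BM (0.0161 to 4.12 under Luc KD, 0.217 to 8.40 under Spn-E KD) also overlapped those of Gypsy-6_BM. None of the 5 LTRs reached the minimum for testing between the libraries, whereas 4 of the 6 internal parts did.

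**Figure D3:**
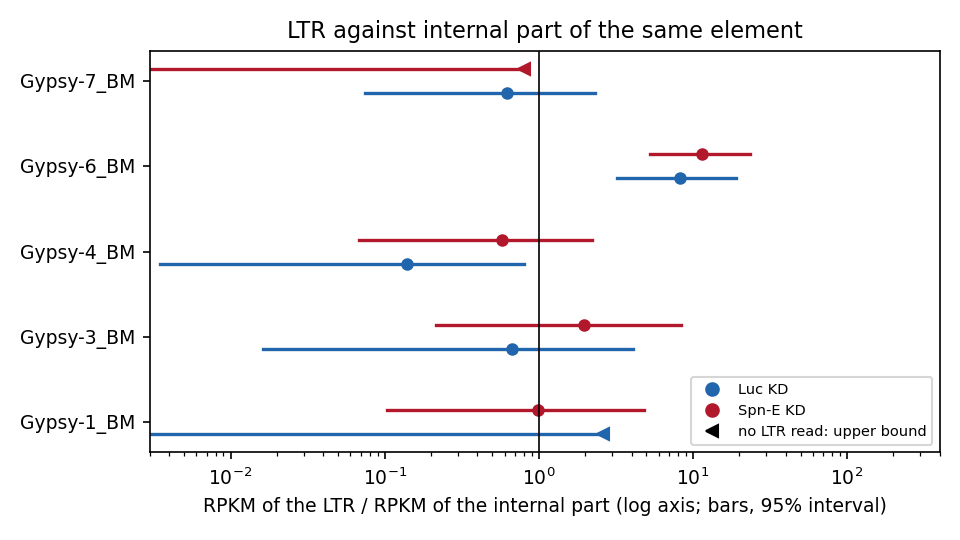
Ratio of reads per kilobase on the LTR to that on the internal part (log axis) for the 5 Gypsy elements listed in both parts, under Luc KD (blue) and Spn-E KD (red); bars are exact 95% intervals for counting error, arrowheads mark an upper limit where the LTR had no read, and bars that reach the left edge extend below the axis. Both bars of Gypsy-6_BM, at 8.28 and 11.5, lie above 1.

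Spn-E was depleted to ask whether loss of piRNA-loaded Siwi alters which RNAs BmVasa binds, and the Gypsy sequences were more represented in that library. The share of gene-library reads on the 72 sequences was 1.65% under Luc KD (6320 reads, Wilson interval 1.61 to 1.69) and 1.91% under Spn-E KD (7716 reads, 1.87 to 1.96). The difference of 0.27 percentage points (Newcombe interval 0.21 to 0.33) is beyond counting error. It was 0.63 points (0.55 to 0.70) when the most abundant sequence of the table, BmTE_RM5-571, was taken out of the total, and 0.10 points (0.08 to 0.13) as a share of genome-mapped reads. The summed level was 6243 RPM under Luc KD and 7284 RPM under Spn-E KD, a log2 ratio of 0.22. Without Kabuki the shares were 1.32% and 1.46%, a difference of 0.13 points (0.08 to 0.18). With the 4 BmRT elements that were left out by name the shares were 3.20% and 3.34%, a difference of 0.14 points (0.06 to 0.22). Both of these differences were smaller than 0.27 points, and both intervals excluded 0.

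Gains and losses came from few elements. The differences between the libraries summed to 1740 RPM over the 43 sequences with a positive one and to -699 RPM over the 27 with a negative one, leaving 1040 RPM. Kabuki gave 30.1% of the gain, and Kabuki and Noguchi together 48.5%. BmRT6 gave 35.9% of the loss, and BmRT6 with BmTE_RM6-9737 gave 61.1%.

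Reads on single sequences were compared by an exact binomial test, two-sided, adjusted by the Benjamini-Hochberg method over all 4727 sequences of the table that reached the minimum. At an adjusted p under 0.05, 13 of the 51 tested Gypsy sequences (25.5%) were called, against 12.0% of all sequences tested. Of these, 8 (15.7%) were higher under Spn-E KD, against 3.74% of all sequences, and 5 (9.80%) were lower, against 8.23% of all. The share of calls toward a higher level was thus above that of the table, which is mostly protein-coding, and the share toward a lower level was near it. In the transposon library, which includes the Gypsy sequences, 18.7% of 563 tested sequences were called, 11.4% higher and 7.28% lower. At an unadjusted p under 0.05 the same test gave 18 of the 51 Gypsy sequences. Scaling the libraries in 3 other ways gave 13 higher and 3 lower calls (centred on protein-coding sequences) or 13 higher and 4 lower calls (TMM, and gene-library reads without the most abundant sequence BmTE_RM5-571), where 9.60%, 9.56% and 10.1% of all sequences were called in either direction. When a variation between pooled libraries with a coefficient of 0.1 was assumed in edgeR's exact test, 1 higher and 3 lower calls were left, against 4.04% of all sequences called, and at 0.2 there were 0 Gypsy calls, with 4 at an unadjusted p under 0.05, against 0.169% of all. The excess over the table also depended on the minimum level: at 50 RPM, 12 of 22 Gypsy sequences were called, against 45.4% of all sequences. The calls therefore describe these pooled libraries.

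Of the 8 sequences called higher under Spn-E KD, 5 had at least 195 reads in each library, among them the most abundant of the 72. Kabuki rose from 1221 to 1745 RPM, or by 0.52 on the log2 scale (interval 0.41 to 0.62, exact binomial test, adjusted p = 1.55e-20). Noguchi, the second most abundant, had 570 reads under Luc KD and 935 under Spn-E KD, or 563 and 883 RPM. Its log2 fold change was 0.65 (0.50 to 0.80, exact binomial test, adjusted p = 1.02e-15). BmTE_RM6-4418 (3617 nt) had 284 and 537 reads, or 281 and 507 RPM, the largest rise among the abundant sequences at 0.85 (0.64 to 1.07, exact binomial test, adjusted p = 1.74e-14). BmTE_RM6-2827, one of the densest by length, had 195 and 336 reads, or 193 and 317 RPM, with a log2 fold change of 0.72 (0.46 to 0.98, exact binomial test, adjusted p = 6.77e-07). BmTE_RM5-285 (4994 nt) rose least, from 347 to 481 reads or 343 to 454 RPM, at 0.40 (0.20 to 0.61, exact binomial test, adjusted p = 0.00118). None of the 5 reached a log2 fold change of 1.

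The 3 other risers were less abundant BmTE_RM sequences, which rose by a similar factor on far fewer reads. BmTE_RM6-1667 (7226 nt) had 79 reads under Luc KD and 140 under Spn-E KD, or 78.0 and 132 RPM, with a log2 fold change of 0.75 (0.35 to 1.18, exact binomial test, adjusted p = 0.00255). BmTE_RM5-1020 (4020 nt) had 63 and 105 reads, or 62.2 and 99.1 RPM, and a log2 fold change of 0.66 (0.21 to 1.15, exact binomial test, adjusted p = 0.0314). BmTE_RM5-1024 (4441 nt) had 35 and 66 reads, or 34.6 and 62.3 RPM, and a log2 fold change of 0.83 (0.24 to 1.48, exact binomial test, adjusted p = 0.0445). Their intervals are wide, and the call of the last 2 was lost when no minimum level was set.

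Lower levels under Spn-E KD were called for 5 sequences, and 2 of them were among the most abundant. BmRT6, the longest Gypsy sequence at 7961 nt, had 499 reads under Luc KD and 256 under Spn-E KD, or 493 and 242 RPM. Its log2 fold change was -1.03 (-1.25 to -0.81, exact binomial test, adjusted p = 2.17e-19). BmTE_RM6-9737 (4313 nt) had 566 and 406 reads, or 559 and 383 RPM, and a log2 fold change of -0.54 (-0.73 to -0.36, exact binomial test, adjusted p = 2.27e-07). This call was lost when the libraries were centred on protein-coding sequences. The internal part Gypsy-4_BM-I had 101 and 49 reads, or 99.8 and 46.3 RPM, and a log2 fold change of -1.09 (-1.63 to -0.60, exact binomial test, adjusted p = 0.000143). BmTE_RM6-170 (4260 nt) had 61 and 27 reads, or 60.3 and 25.5 RPM, the largest fall among the called sequences at -1.21 (-1.95 to -0.57, exact binomial test, adjusted p = 0.00267). Rikishi_Kabuki_type (4560 nt) had 79 and 47 reads, or 78.0 and 44.4 RPM, and a log2 fold change of -0.80 (-1.37 to -0.28, exact binomial test, adjusted p = 0.0238), a call that was lost under each of the 3 other scalings.

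**Figure D4:**
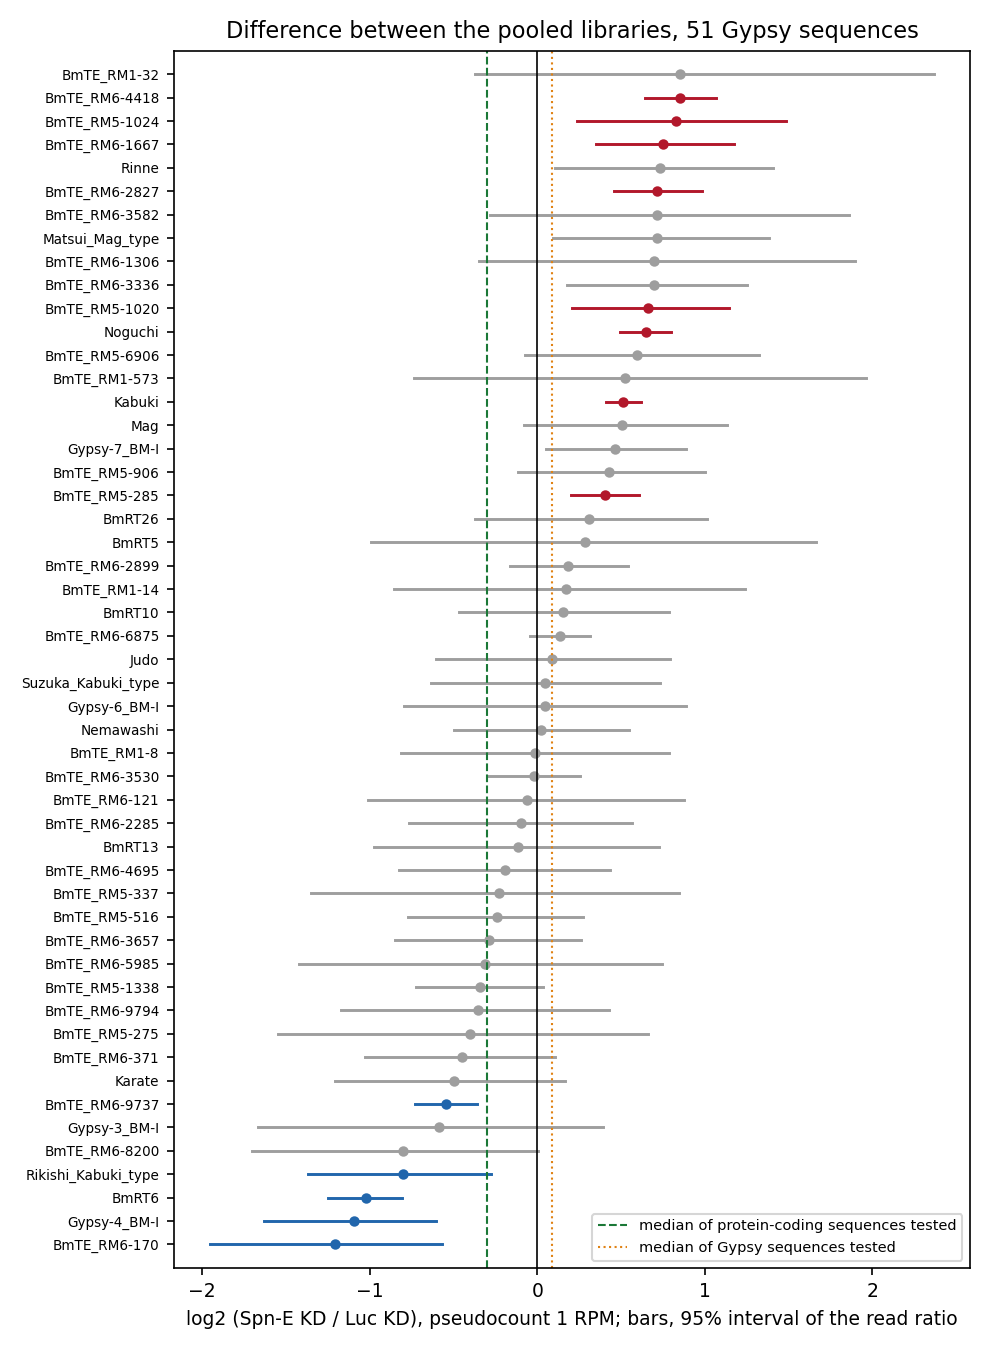
log2 fold change of RPM + 1, Spn-E KD over Luc KD, for the 51 tested Gypsy sequences. Points are the pooled libraries and bars exact 95% intervals of the read ratio for counting error. The bars of 17 sequences exclude 0, but only 13 were called after adjustment, 8 higher (red) and 5 lower (blue). The called ones run from 0.85 for BmTE_RM6-4418 to -1.21 for BmTE_RM6-170, and bars narrow with the number of reads.

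Some abundant Gypsy sequences did not pass the test. BmTE_RM6-6875, the third by mean RPM, had 482 reads under Luc KD and 554 under Spn-E KD, or 476 and 523 RPM, with a log2 fold change of 0.14 (-0.04 to 0.31, exact binomial test, adjusted p = 0.389). It was called higher under each of the 3 other scalings. BmTE_RM6-3530 had 217 and 224 reads, or 214 and 211 RPM, a value of -0.02 (-0.30 to 0.26, exact binomial test, adjusted p = 0.981) whose sign turned under each of those scalings. BmTE_RM6-2899 (7588 nt) had 126 and 150 reads and a value of 0.18 (-0.17 to 0.54, exact binomial test, adjusted p = 0.602). The short BmTE_RM5-6906 had a value of 0.60 (-0.08 to 1.32, exact binomial test, adjusted p = 0.263). For such sequences the intervals bound the change rather than show its absence.

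Depth set which changes could be seen. Of the 13 tested sequences with at least 200 reads over both libraries, 8 were called, and their intervals had a median width of 0.44 on the log2 scale. Of the 27 with at least 50 but under 200 reads, 5 were called at a median width of 1.29, and of the 11 with fewer, none was called at a median width of 2.19. Among the 21 untested sequences, BmTE_RM6-10853 (1685 nt) had 3 reads under Luc KD and 16 under Spn-E KD, a log2 ratio between 0.54 and 4.77. It was singled out after its values were seen.

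At the authors' scaling a 2-fold change was rare. No tested Gypsy sequence was at least 2-fold higher, against 3.13% of all sequences tested, and 3 were at least 2-fold lower, against 9.54% of all. These were BmRT6, Gypsy-4_BM-I and BmTE_RM6-170. This depended on the scaling. Centring on protein-coding sequences turned it to 8 of 51 higher, against 7.51% of all sequences, and 0 lower, against 4.44% of all. For falls it also depended on the minimum level. At 50 RPM and the authors' scaling, 2 of 22 Gypsy sequences were at least 2-fold lower, against 4.75% of all sequences. At least 2-fold higher were 0 of these 22, against 2.67% of all. The median log2 fold change of the 51 tested sequences was 0.09, beside -0.24 for all 4727 sequences and -0.30 for the protein-coding ones. A value above 0 was found for 29 of the 51 (56.9%), against 34.5% of all sequences and 28.9% of protein-coding sequences. Above the protein-coding median lay 38 of the 51 (74.5%). This was not particular to Gypsy: a value above 0 was found for 51.3% of the transposon library, 51.6% of Pao and 58.3% of Copia sequences tested. The LTR sequences outside Gypsy had a median of 0.09 as well. With protein-coding sequences as the zero point, which shifts every value by 0.30, the Gypsy median was 0.38.

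Related names gave different pictures for Kabuki and for Mag. Kabuki rose while Rikishi_Kabuki_type fell, and their log2 ratios of reads differed by 1.33 (interval 0.80 to 1.86), a difference that no scaling of the libraries alters. Suzuka_Kabuki_type had 37 reads under Luc KD and 40 under Spn-E KD, with a log2 fold change of 0.05 (exact binomial test, adjusted p = 0.996), and its difference from Kabuki, 0.47, had an interval of -0.18 to 1.12. Per kilobase Kabuki had 13.4 times the level of Rikishi_Kabuki_type under Luc KD and 33.8 times under Spn-E KD. Mag, which gives its name to a lineage of Gypsy elements, had 40 and 60 reads, and Matsui_Mag_type had 34 and 59. Their log2 fold changes were 0.51 (exact binomial test, adjusted p = 0.303) and 0.71 (exact binomial test, adjusted p = 0.120), and the difference between them, -0.21, had an interval of -1.05 to 0.63. Reads with several matches were placed by random and multiple counting in the authors' mapping, so values of close relatives are uncertain.

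The groups of sequences differed in the direction of their summed reads. The 21 other named elements had 2428 reads under Luc KD and 3433 under Spn-E KD, a log2 ratio of 0.43 (0.36 to 0.51), mostly those of Kabuki and Noguchi, and 2 of 14 tested were called higher and 2 lower. The 45 BmTE_RM sequences had 3274 and 3888 reads, a ratio of 0.18 (0.11 to 0.25), with 6 of 32 tested called higher and 2 lower. The 6 BmRT elements had 618 and 395 reads, a ratio of -0.71 (-0.90 to -0.53), with only BmRT6 called among the 5 tested. The median fold change of those 5 was 0.15, so the fall of the sum was that of BmRT6. The 4 BmRT elements left out by name had their own changes: BmRT2 held 5562 and 5188 reads, more than any of the 72, BmRT1 242 and 131, BmRT12 67 and 34, and BmRT11 114 and 400.

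Among other classes, the summed levels of DNA transposons and Copia were also higher under Spn-E KD, while those of Pao and protein-coding sequences were lower at the authors' scaling. The summed Gypsy level had a log2 ratio of 0.22, that of Copia 0.21 and that of Pao -0.25. With the 4 elements left out by name added, the Gypsy ratio was only 0.06 (0.03 to 0.10). That value was below the Copia ratio, near that of LINE sequences (0.07) and above those of Pao and protein-coding sequences. The nearness of Gypsy to Copia thus depended on leaving these elements out, as all other Gypsy values of this comparison do. Under the 3 other scalings the Gypsy ratio was 0.39 to 0.52, and centring on protein-coding sequences turned the Pao ratio to 0.05 and that of protein-coding sequences to 0.03. The ratio of Gypsy exceeded that of Pao by 0.47 (0.40 to 0.53) and, without the single most abundant Pao element, named Pao, by 0.37 (0.30 to 0.45). It was below that of DNA transposons, 0.43, (difference -0.21, interval -0.27 to -0.15). It differed from that of Copia by 0.01, with an interval of -0.11 to 0.13. Against protein-coding sequences the difference was 0.49 (0.44 to 0.54). Sums follow the abundant elements: between the medians of tested sequences Gypsy exceeded Pao by only 0.06 and protein-coding sequences by 0.39, and lay below Copia by 0.07. Among all reads on LTR retrotransposons, the part of the 72 sequences was 26.9% under Luc KD (26.4 to 27.5) and 32.4% under Spn-E KD (31.8 to 33.0). The difference was 5.44 points (Newcombe interval 4.62 to 6.26). The total here includes the 4 Gypsy elements left out by name. With these counted as Gypsy, the class held 12305 of 23479 LTR reads under Luc KD and 13469 of 23845 under Spn-E KD.

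Calls were also frequent in the other LTR classes. Of 31 tested Pao sequences 17 (54.8%) were called, 8 higher and 9 lower, and of 12 Copia sequences 4 (33.3%), 3 higher and 1 lower. Protein-coding sequences were called in 8.44% of 3544, with 1.13% higher and 7.31% lower. The share of Gypsy calls, 25.5%, lay between these, and whether it differs from them was not tested.

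**Figure D5:**
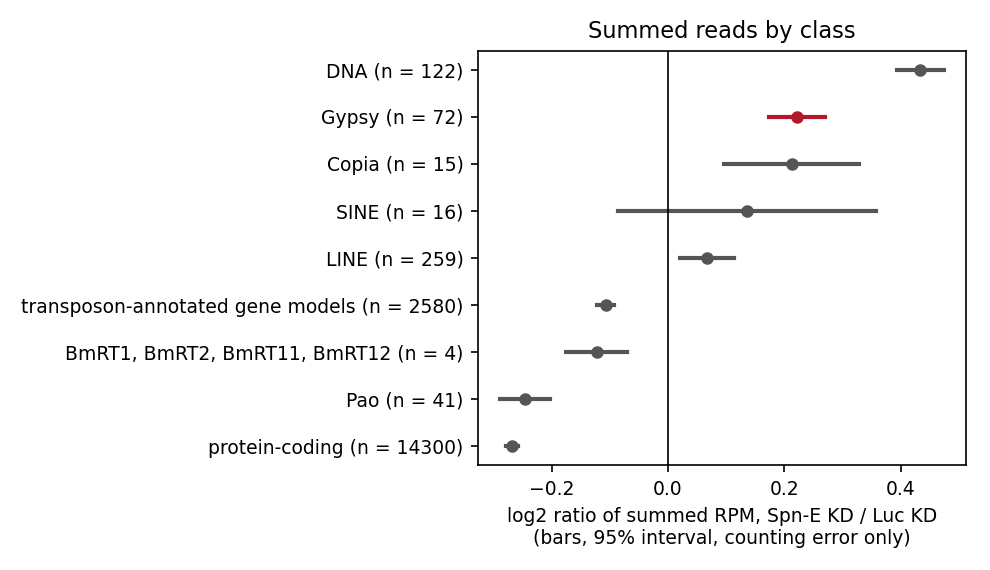
log2 ratio of summed RPM, Spn-E KD over Luc KD, by class of sequence, with the number of sequences in parentheses; points are the pooled libraries and bars 95% intervals for counting error. At the authors' scaling the 72 Gypsy sequences (red, 0.22) lie below DNA transposons (0.43) and beside Copia (0.21). They lie above Pao (-0.25) and protein-coding sequences (-0.27), and centring on protein-coding sequences turns these last 2 to 0.05 and 0.03. With the BmRT elements left out by name added, the Gypsy ratio is 0.06, below that of Copia.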

How the data were processed

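Sense reads of BmVasa FAST-iCLIP were analysed from 4 samples, 2 per group, with groups taken from the sample labels. The authors trimmed adaptors with Cutadapt 4.0, dropped reads under 27 nt, collapsed PCR duplicates, mapped reads to the SilkBase assembly with STAR 2.7.9a and then to a library of gene models and transposons with Bowtie 1.3.1, allowing 2 mismatches and placing reads with several matches by random and multiple counting, and counted sense reads with SAMtools 1.15. RNA had been cut with RNase T1, which cuts after G, so base content can affect which fragments were read. The deposited read counts merge the replicates into 1 column per group. The RPM values deposited by the authors equal these counts per 1000000 genome-mapped reads for all 18596 sequences (within 1e-06), and the RPKM values deposited by the authors equal RPM per kb of the deposited length.

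Fold changes are log2 ratios of RPM after a pseudocount of 1 RPM was added to both libraries, so low sequences appear to change less than they do. Testing was limited to a mean RPM of 10 or more, and the null ratio was that of the genome-mapped reads. edgeR's quasi-likelihood test, planned if counts per replicate were given, could not be run. Shares have Wilson, differences of shares Newcombe and read ratios Clopper-Pearson intervals. Differences between 2 log2 read ratios have normal-approximation intervals computed from the read counts. The limit a count of 0 allows, 3 reads, was 2.96 RPM under Luc KD and 2.83 RPM under Spn-E KD. Named sequences were the 10 highest in mean RPM, the 5 highest in mean RPKM with at least 20 reads in a library and those called with at least a 1.5-fold change, 17 in all, plus parts and relatives by name. Members and lists were chosen with earlier results of these data known. The code was tested on simulated data. Alternatives covered the minimum, the pseudocount, scaling, membership and assumed variation. Element sequences and genome positions were not used here. Python 3.11.15, scipy 1.17.1, pandas 2.3.3, statsmodels 0.14.6, R 4.3.3 and edgeR 4.0.16 were used.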

Additional observations from a re-analysis of the deposited data

How the results depend on the processing

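No paired analysis was possible because both replicates of a group share 1 merged column; fits that leave out a replicate were not run for the same reason. The calls depended on the scaling and on the error model. Centring on protein-coding sequences, TMM scaling and scaling to gene-library reads without BmTE_RM5-571 shift every log2 value by 0.30, 0.23 and 0.17. They gave 13 higher calls each, 3 lower calls under the first, medians of 0.38, 0.31 and 0.25, and 8, 3 and 2 sequences at least 2-fold higher with 0, 0 and 1 at least 2-fold lower. BmTE_RM6-3530 turned to 0.28, 0.21 and 0.15. In total 16, 17 and 17 sequences were called, of which 11, 12 and 12 were among the 13. With an assumed coefficient of variation of 0.1 in edgeR's exact test 4 were called (1 higher, 3 lower; 13 at an unadjusted p under 0.05), namely BmTE_RM6-4418, BmRT6, Gypsy-4_BM-I and BmTE_RM6-170. At 0.2 there were 0 calls (4 unadjusted), and at 0.4 there were 0 (0 unadjusted). With no minimum 10 were called (2.12% of all sequences), the median was 0.14, and 3 and 5 sequences were at least 2-fold higher and lower. A minimum of 50 RPM gave 12 calls of 22 (45.4% of all sequences) and a median of 0.16, and a pseudocount of 5 RPM a median of 0.079. Chosen after the data were seen, adding the 4 BmRT elements left out by name gave 8 lower calls, 1 sequence at least 2-fold higher and a median of 0.046.

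The difference of shares was 0.63 points of gene-library reads without BmTE_RM5-571, 0.10 of genome-mapped reads, 0.14 with the 4 BmRT elements and, chosen after the data were seen, 0.13 without Kabuki. Over the sequences with at least 10 RPM the median levels were 14.1 RPKM under Luc KD and 12.8 RPKM under Spn-E KD. With the 4 BmRT elements the most abundant sequence took 45.2% and 38.5%, the top 5 took 68.4% and 66.3% and the top 10 took 80.1% and 81.2% of Gypsy reads. Of 136 comparisons of a named sequence with an alternative setting, 91 kept direction and call, 39 lost the call (35 under an assumed variation), 3 gained it and 3 changed sign. The 91 include all 17 named sequences at each other pseudocount, which enters the fold change but not the test. They also include sequences that were never called, and an assumed variation leaves the fold change as it was. Under 200 reads over both libraries, the median interval of a fold change was at least 1.29 wide on the log2 scale.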
